A study of Mus musculus with 6 samples.

Results

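CC chemokines are small secreted proteins that draw leukocytes into tissue, and 9 mouse genes of this family were examined in the aging cochlear lateral wall. The genes were the ligands Ccl2, Ccl5, Ccl6, Ccl7, Ccl8, Ccl9, Ccl12 and Ccl19 and the receptor Ccr2. Every probe set of the deposited table that the platform annotation pairs with exactly 1 of these symbols was taken. That gave 13 of 45037 probe sets, for 8 of the 9 genes. Ccl19 had 1 probe set, which also lists 9 other symbols, so no value was assigned to it. The cochlear lateral wall is the outer wall of the cochlear duct with the stria vascularis and, behind it, the spiral ligament. It was dissected from CBA/CaJ mice, an inbred strain, of both sexes and with no treatment or transgene named in the labels. The OldAdult group (1.5 years of age) and the YoungAdult group (1 to 3 months of age) had 3 one-colour Affymetrix arrays each. The labels do not say whether an array holds 1 animal or a pool, so the spread between arrays may be in part technical. Young replicate 2 stood apart in Xist, which is transcribed from the inactive X chromosome of females, with a log2 signal of 6.06 against 11.95 to 12.65 elsewhere. The members were selected on their old minus young differences on these same arrays, in that they were proposed with results of this age comparison in view. Their values are therefore given as a description, without p-values.

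CC ligands carry a pair of adjacent cysteines near the amino terminus and act through receptors coupled to inhibitory G proteins. Ccl2, Ccl7 and Ccl12 are ligands of Ccr2, the receptor by which classical monocytes leave the bone marrow and enter tissue. Ccl5 acts through several CC receptors, Ccr1 and Ccr3 among them, and is made by T cells, natural killer cells and macrophages. Ccl6 and Ccl9 are rodent ligands of Ccr1, and mouse Ccl8 acts through Ccr8. Ccl19 is a ligand of Ccr7 and guides T cells and dendritic cells to lymphoid tissue. The lateral wall holds resident macrophages beside the capillaries of the stria and among the fibrocytes of the ligament.

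The promoters of Ccl12 and Ccl8 are shown because these genes are direct neighbours on the chromosome and had unlike age differences. Theirs were also the most similar promoters among the 6 members with a promoter sequence. Both are RefSeq sequences of build GRCm38.p6, 300 bases long, from 250 bases before to 50 bases after the gene start, read 5′ to 3′ on the plus strand. Capitals mark matches to TATAAA and to GAGGAA, the core bound by the myeloid transcription factor PU.1, on either strand. The Ccl12 window is chr11:82101595-82101894 and the Ccl8 window is chr11:82114935-82115234.
Ccl12: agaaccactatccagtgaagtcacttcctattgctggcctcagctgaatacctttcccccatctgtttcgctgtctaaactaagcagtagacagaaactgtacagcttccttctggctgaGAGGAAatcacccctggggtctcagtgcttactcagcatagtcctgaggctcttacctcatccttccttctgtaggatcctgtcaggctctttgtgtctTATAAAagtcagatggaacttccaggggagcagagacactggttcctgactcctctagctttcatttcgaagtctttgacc
Ccl8: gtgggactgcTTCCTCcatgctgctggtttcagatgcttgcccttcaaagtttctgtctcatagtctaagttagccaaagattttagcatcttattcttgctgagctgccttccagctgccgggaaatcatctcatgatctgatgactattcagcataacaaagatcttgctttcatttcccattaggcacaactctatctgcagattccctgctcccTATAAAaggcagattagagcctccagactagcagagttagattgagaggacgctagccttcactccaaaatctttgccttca

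In a global alignment the promoters of Ccl12 and Ccl8 were identical at 54.9% of alignment columns, the highest of the 15 pairs among 6 members with a promoter in the table. The other pairs lay between 40.7% and 50.0%. The 6 were Ccl6, Ccl8, Ccl9, Ccl12, Ccl19 and Ccr2, and Ccl2, Ccl5 and Ccl7 were not among them. TATAAA began at base -31 from the gene start in Ccl12 and at base -32 in Ccl8. The letters GAGGAA lay at bases -130 to -125 on the plus strand in Ccl12 and at bases -240 to -235 on the opposite strand in Ccl8. On both strands, TATAAA was found in 13.6% and GAGGAA in 28.3% of all 32851 promoter windows of this length. The kappaB pattern (GGG, any 5 bases, CC), found in 50.8% of all windows, was matched in 2 of the 6, Ccl9 and Ccl19. The AP-1 pattern TGANTCA, found in 7.81% of windows, was matched in Ccl9, and the IRF pattern (GAAA, any 2 bases, GAAA), found in 3.44% of windows, in Ccl19. The Ccl9 window holds 3 TATAAA matches, of which those at bases -94 to -89 and -92 to -87, on opposite strands, overlap and the one at bases -224 to -219 does not. In the Ccl19 window the kappaB match reads on both strands over the same bases.

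Ccl12 and Ccl5 were higher in the old lateral wall, and the remaining 11 probe sets of the group differed by at most 0.36 log2 in either direction. Of the 13 probe sets, 2 were called higher and 0 lower by limma at an adjusted p of 0.05, and 11 were not called. Over all 45037 probe sets, 4.71% were called, 1.86% higher and 2.84% lower in old tissue. Nothing is read from the members' count, since the members were picked with this contrast known. The number of all probe sets called depended on single arrays. It was 2119 with every array. Leaving out old replicate 1, 2 or 3 gave 934, 1122 or 515, and leaving out young replicate 1, 2 or 3 gave 985, 3393 or 618. Ccl5 and Ccl12 were the 2 members called in each of those fits. Those fits reuse the arrays on which the members were picked, so they are no independent support. The median difference of the 8 measured genes, at the brightest probe set of each, was 0.09 log2, against 0.03 over all 18193 genes.

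**Figure D1:**
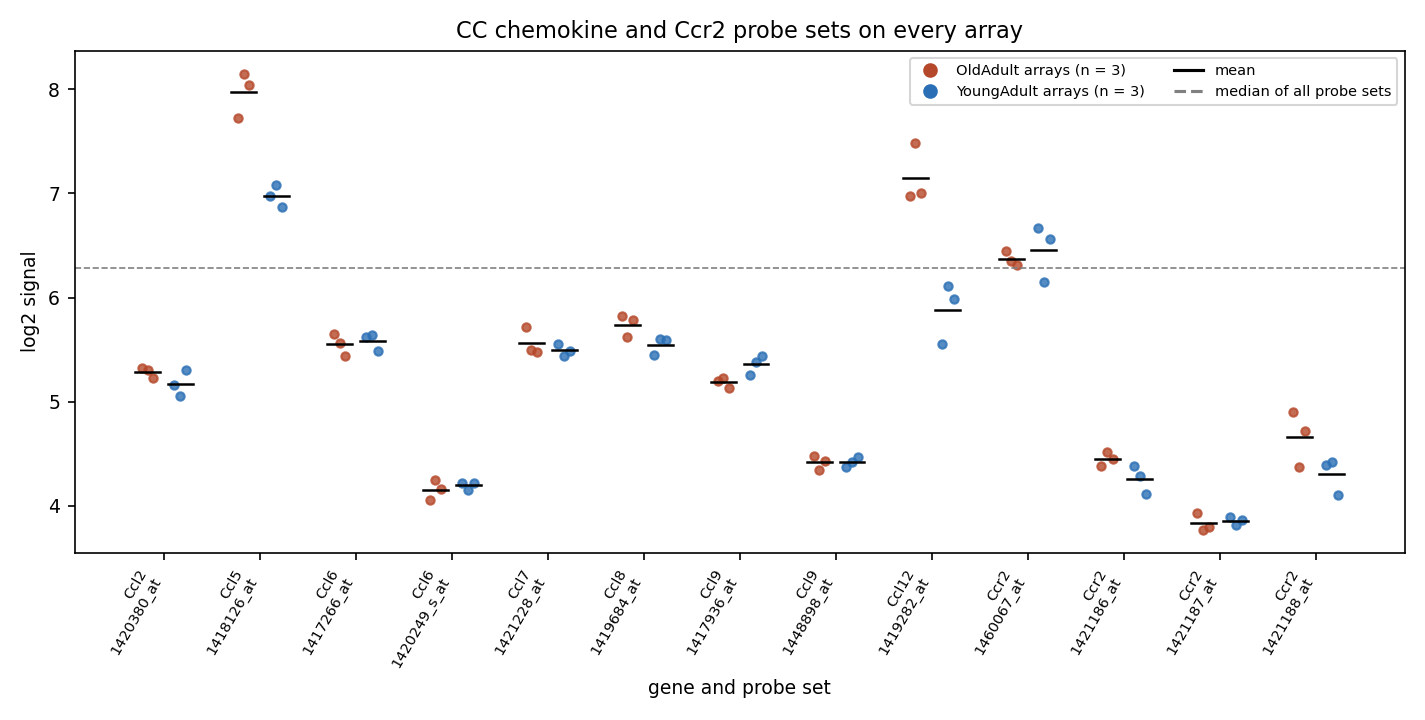
Log2 signal of the 13 probe sets on every array, with old arrays left of young arrays, a bar at each mean and a dashed line at the median of all probe sets, 6.28. The 3 old arrays lie above the 3 young arrays for Ccl5 and Ccl12, and narrowly for Ccl8 (lowest old 5.62, highest young 5.60). They lie below the young arrays for Ccl9 at 1417936_at. Most of the probe sets other than those of Ccl5 and Ccl12 lie below the dashed line at both ages.

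Among the Ccr2 ligands, Ccl12 (monocyte chemoattractant protein 5, probe set 1419282_at) had log2 signals of 6.97, 7.48 and 7.0 on the old arrays, against 5.55, 6.11 and 5.99 on the young arrays. The lowest old array exceeded the highest young array by more than the whole range of either age. The means were 7.15 ± 0.29 in old and 5.88 ± 0.29 in young tissue (SD, n = 3 each), a difference of 1.27 ± 0.18 log2 (standard error from limma) or 2.41-fold. The old mean lay above and the young mean below 6.28, the median over all probe sets and arrays. The difference was 1.10 to 1.38 with any single array left out. In bulk tissue, more cells that make an RNA and more of that RNA per cell cannot be told apart.

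Ccl2, the prototype monocyte attractant, had signals of 5.32, 5.30 and 5.23 on the old arrays and 5.16, 5.05 and 5.30 on the young arrays. Ccl7 had signals of 5.72, 5.50 and 5.48 on the old arrays and 5.55, 5.44 and 5.49 on the young arrays. The ages overlapped for both ligands, with differences of 0.11 ± 0.09 for Ccl2 and 0.07 ± 0.09 for Ccl7. Both had means below 5.6 at both ages. No detection calls were used here, so whether such dim probe sets lay above background is not known.

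Ccr2, the receptor of those 3 ligands, had 4 probe sets and none was called. The brightest, 1460067_at, had signals of 6.45, 6.35 and 6.31 on the old arrays and 6.67, 6.15 and 6.56 on the young arrays. The old values lay inside the young range, with a difference of -0.09 ± 0.13. The other probe sets did not share a direction. Probe set 1421188_at gave 4.90, 4.37 and 4.72 on the old arrays and 4.39, 4.42 and 4.10 on the young arrays, a difference of 0.36 ± 0.15. Probe sets 1421186_at and 1421187_at gave differences of 0.19 ± 0.09 and -0.02 ± 0.08. The ages overlapped for all 4, and the mean over the 4 probe sets differed by 0.11 where the brightest alone differed by -0.09.

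Ccl5 (RANTES, probe set 1418126_at) had log2 signals of 7.72, 8.15 and 8.04 on the old arrays, against 6.97, 7.08 and 6.87 on the young arrays. The ages did not overlap, and all 6 arrays lay above 6.28. The means were 7.97 ± 0.22 in old and 6.97 ± 0.11 in young tissue (SD, n = 3 each), a difference of 1.00 ± 0.12 log2 or 2.0-fold. The difference was 0.91 to 1.12 with any single array left out. The second old array was the brightest of the 6 for both Ccl5 and Ccl12. The first young array was the lowest for Ccl12, and the third young array was the lowest for Ccl5.

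The Ccr1 ligands Ccl6 and Ccl9 were dim at both ages. Ccl6 had signals of 5.65, 5.56 and 5.44 on the old arrays and 5.62, 5.64 and 5.49 on the young arrays, which overlap. A second Ccl6 probe set, 1420249_s_at, ranged from 4.06 to 4.25 on the old and from 4.15 to 4.22 on the young arrays. Ccl9 at probe set 1417936_at had signals of 5.20, 5.23 and 5.13 on the old arrays and 5.26, 5.38 and 5.44 on the young arrays. Every old value was below every young one, with a difference of -0.17 ± 0.08 that was not called. Its second probe set, 1448898_at, overlapped between the ages, with means of 4.42 in old and 4.42 in young tissue.

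Ccl8, the ligand of Ccr8 and the neighbour of Ccl12, had signals of 5.82, 5.62 and 5.78 on the old arrays and 5.45, 5.60 and 5.59 on the young arrays. The old values lay above the young ones by as little as 0.02 log2, and the difference of 0.19 ± 0.09 was not called. Of the 13 probe sets, 3 had old values wholly above and 1 wholly below the young values, where the ages did not overlap for 23.8% of all probe sets, 12.5% with old above and 11.3% with old below young. In 10 of the 13, the mean of the brighter age did not exceed 6.28, that median.

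Along chromosome 11, 7 of the members lie among 11 CC ligand genes, all measured, in the order Ccl2, Ccl7, Ccl11, Ccl12, Ccl8, Ccl1 and, after 25 other protein-coding genes, Ccl5, Ccl9, Ccl6, Ccl3 and Ccl4 (RefSeq, GRCm38.p6). Ccl12 and Ccl5, with the largest differences of the 11, were in separate runs. The members beside them, Ccl8 next to Ccl12 and Ccl9 next to Ccl5, differed by 0.19 and -0.17. Both were dim, with means below 6.28 at both ages, which limits what their small differences can show. Ccl11 (eotaxin), on one side of Ccl12, had signals of 6.40, 6.93 and 7.22 on the old and 6.02, 6.53 and 6.60 on the young arrays, which overlap. Its difference of 0.47 ± 0.22 did not pass (limma adjusted p = 0.294). Ccl1, on the far side of Ccl8, differed by 0.06 (limma adjusted p = 0.789). Ccl3 and Ccl4, attractants of monocytes and T cells, differed by 0.10 and -0.02 (limma adjusted p = 0.739 and 0.943).

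**Figure D2:**
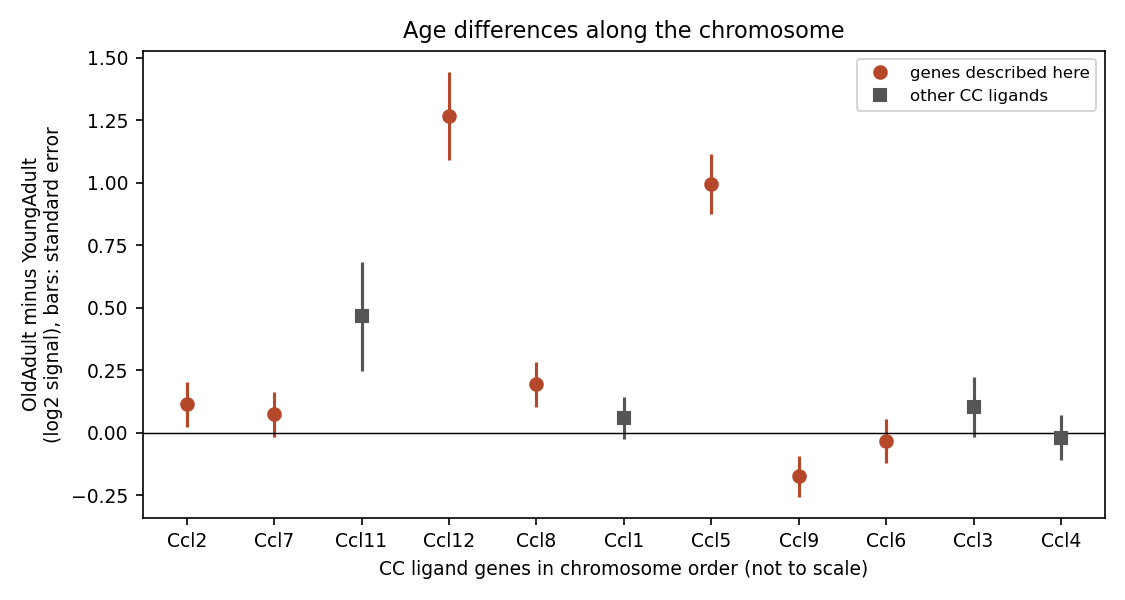
Difference between old and young log2 signal (mean of 3 arrays each, bars give the standard error from limma) for the 11 CC ligand genes in chromosome order. Ccl12 at 1.27 and Ccl5 at 1.00 stand above the others, which lie between -0.17 and 0.47.

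The rest of the CC family was tested on a list of genes that are not members. Of 16 other CC ligands 11 were measured, and limma called 0 of the 11, with 1 at an unadjusted p under 0.05. The same rule called 4.78% of all genes at 1 probe set per gene, 2.45% higher and 2.33% lower in old tissue. Their median difference was 0.01 log2. The ligand with the smallest p was Ccl27a, a skin-homing T cell attractant, with 7.93, 7.73 and 7.56 on the old and 6.97, 7.35 and 7.27 on the young arrays. Its ages did not overlap, and its difference of 0.54 ± 0.13 fell just short of the threshold (limma adjusted p = 0.0519). Without young replicate 2 its call was gained, with a difference of 0.62 (limma adjusted p = 0.0388). Its probe set carries the suffix x, which Affymetrix gives to probes that can bind other transcripts, and its near-identical copy Ccl27b was not analysed here.

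Of 13 other CC and atypical receptors measured, limma called 0, with 0 at an unadjusted p under 0.05. Their median difference was 0.02 log2, and the range was -0.16 to 0.25. The receptors with the smallest p were Ccr10 (-0.16, limma adjusted p = 0.416), a receptor of Ccl27a, and Ccrl2 (-0.15, limma adjusted p = 0.437), an atypical receptor. Ccr1, a receptor of Ccl5, Ccl6 and Ccl9, was singled out after its values were seen. It had 5.76, 5.72 and 5.82 on the old arrays and 5.26, 5.92 and 5.36 on the young arrays, where young replicate 2 was the highest of all 6. Its difference was 0.25 ± 0.16 with all arrays (limma adjusted p = 0.455) and 0.46 ± 0.09 without young replicate 2 (limma adjusted p = 0.0221).

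**Figure D3:**
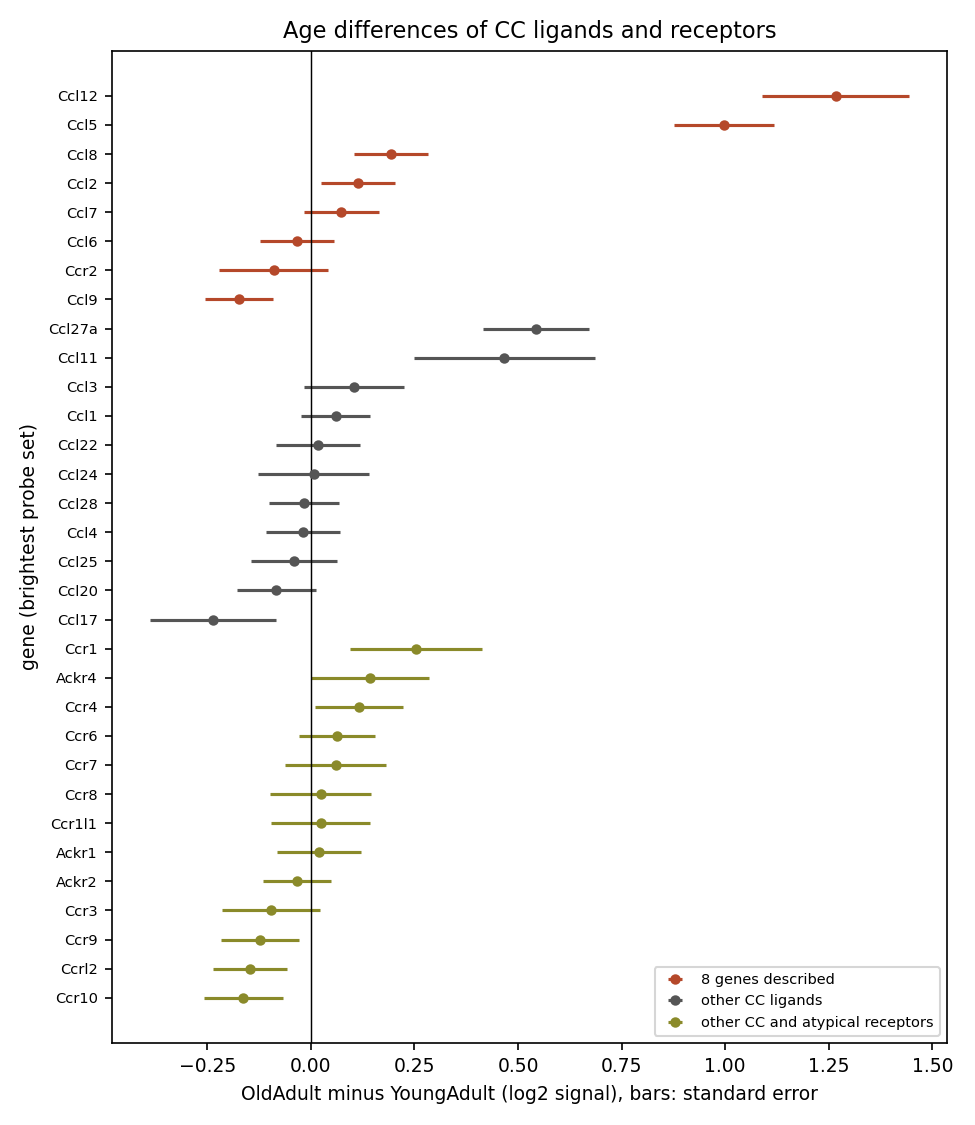
Difference between old and young log2 signal, with its standard error, for the 8 measured genes described, the 11 other CC ligands and the 13 other receptors, each at its brightest probe set. Ccl12 and Ccl5 lie at 1.27 and 1.00, and every other gene lies between -0.24 and 0.54.

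Genes that induce CC chemokines or carry their signal were tested on 2 further lists. Of 16 measured cytokines, Toll-like receptors and NF-kappaB or STAT factors, 0 were called higher and 1 lower by limma, 5 had an unadjusted p under 0.05, and the median difference was 0.03. The 1 was Nfkbia, the inhibitor of NF-kappaB and itself a target of it, at 12.48 ± 0.12 in old and 13.06 ± 0.06 in young tissue (SD, n = 3 each). Its difference was -0.58 ± 0.09 (limma adjusted p = 0.0115), and 0.0554 without young replicate 3. Of 13 measured genes of CC receptor signalling, 0 were called higher and 1 lower by limma, 5 had an unadjusted p under 0.05, and the median was 0.08. The ages did not overlap for 3 genes with old above and 3 with old below young in the first list, and for 4 above and 1 below in the second. Over all 18193 genes at 1 probe set each, 3096 had old wholly above and 1765 wholly below young. The share of all genes at an unadjusted p under 0.05 is not given here, so nothing is read from those counts. Rgs1, which shortens G protein signals from chemokine receptors, had 5.41, 5.36 and 5.74 on the old arrays, against 6.85, 7.42 and 6.86 on the young arrays. It fell by 1.54 on the log2 scale with a standard error of 0.17 (limma adjusted p = 0.00319). All old values of Rgs1 were below all young values.

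Markers of leukocytes moved in several directions beside Ccl5 and Ccl12, and their part in those differences was not tested. Of 6 measured T cell genes, 2 were called higher and 0 lower, with a median difference of 0.13, and the mean over the list was 5.73 to 5.89 on old and 5.36 to 5.56 on young arrays. Cd3g, a chain of the T cell receptor complex, had 5.25, 5.55 and 5.25 on the old and 3.86, 4.01 and 3.94 on the young arrays (difference 1.41 ± 0.10, limma adjusted p = 0.000985). Cd3d, another chain, differed by 0.44 ± 0.10 (limma adjusted p = 0.0467), and was not called with any single array left out (limma adjusted p up to 0.144). The ages overlapped for Cd3e, Cd4, Cd8a and Cd247, with differences of 0.10, -0.07, 0.03 and 0.16. Of 5 measured B cell genes, the kinase gene Blk was called higher (0.59 ± 0.11, limma adjusted p = 0.0273) and 0 lower, with a median of 0.00. The B cell means overlapped, at 4.89 to 5.03 on old and 4.83 to 5.08 on young arrays. Without single arrays other than old replicate 1 and young replicate 2, Blk was not called (limma adjusted p up to 0.119).

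Of 10 macrophage genes, 1 was called higher and 1 lower, with a median of 0.23. The macrophage list mean was 8.56 to 8.72 on old and 8.37 to 8.49 on young arrays. Old values lay wholly above young values for 4 of the 10 and wholly below for 1 (3096 and 1765 of all 18193 genes). The ages overlapped for Csf1r, Fcgr1, C1qa, C1qb and C1qc, with differences from -0.08 to 0.26. Cd68, a lysosomal protein of macrophages, was at 8.85 ± 0.10 in old and 7.69 ± 0.20 in young tissue (SD, n = 3 each, limma adjusted p = 0.00230), and the efferocytosis receptor gene Mertk differed by -0.62 ± 0.11 (limma adjusted p = 0.0174). Of 8 measured monocyte genes, S100a4 was called higher (0.87 ± 0.17, limma adjusted p = 0.0268) and Chil3 lower (-1.20 ± 0.24, limma adjusted p = 0.0287), with a median of 0.04. The monocyte means overlapped, at 6.42 to 6.49 on old and 6.27 to 6.62 on young arrays. Of 9 neutrophil and marrow genes, 6 were called lower and 0 higher, with a median of -1.27, and the list mean was 6.24 to 6.83 on old and 7.28 to 7.70 on young arrays. Mpo and Ngp, of granulocyte precursors, differed by -1.27 ± 0.14 and -1.62 ± 0.23 (limma adjusted p = 0.00393 and 0.00908). Leaving out single arrays ended the calls of Mertk (any array except young replicate 2, limma adjusted p up to 0.0812), S100a4 and Chil3 (young replicate 3 or any old array, limma adjusted p up to 0.0860 and 0.119) and Ngp (young replicate 3, limma adjusted p = 0.0544).

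**Figure D4:**
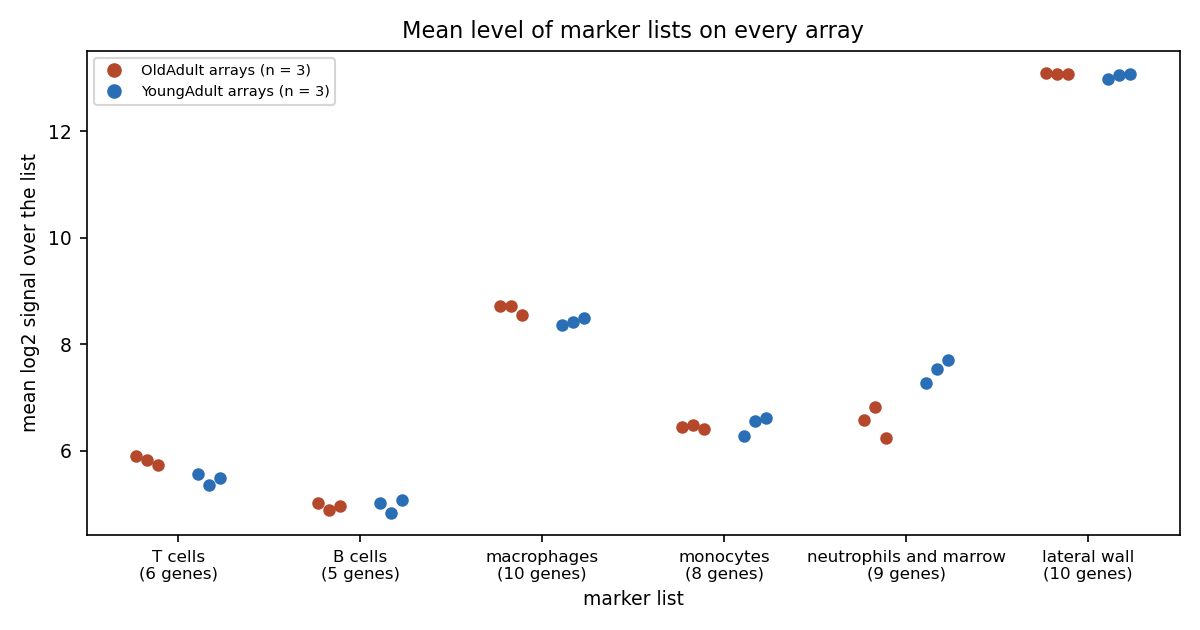
Mean log2 signal over each marker list on every array, with old arrays left of young arrays. The T cell and macrophage means are higher on all 3 old arrays, as is the lateral wall mean by a small margin (13.08 to 13.10 against 12.99 to 13.07), the neutrophil and marrow means are lower on all 3, and the B cell and monocyte means overlap. Cd3g and Cd68 have the largest differences of the T cell and macrophage lists and weigh on those means. With Cd3g left out the T cell means of old and young arrays overlap, and so do the macrophage means with Cd68 left out.

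The labelled tissue was checked on 10 lateral wall genes, all above the median signal, of which limma called 0, with 2 at an unadjusted p under 0.05. Their list mean was 13.08 to 13.10 on old and 12.99 to 13.07 on young arrays, which do not overlap. The smallest p were those of Kcne1, a potassium channel subunit of marginal cells (0.33, limma adjusted p = 0.119), and Otos, a fibrocyte protein (-0.19, limma adjusted p = 0.215). Without young replicate 2, the array whose Xist signal stood apart, the difference was 1.38 for Ccl12 and 1.05 for Ccl5. For Gapdh, the 3′ control probe set exceeded the 5′ one, a measure of RNA integrity and labelling, by 1.26 to 1.45 on old and 1.07 to 1.25 on young arrays, and the part of this in the Ccl5 and Ccl12 differences was not tested. For Actb the excess overlapped, at 1.39 to 1.84 on old and 1.46 to 1.60 on young arrays.

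Genes with the profile most like Ccl12 over the 6 arrays were found by the root mean square distance between log2 signals, each gene centred on its own mean. The nearest was Cd48, a leukocyte surface protein, at a distance of 0.09 log2. Cd48 had 6.20, 6.61 and 6.30 on the old arrays and 4.73, 5.53 and 5.29 on the young arrays, so that, as for Ccl12, the second old array was highest and the first young array lowest. Nfe2l3, a transcription factor, and Popdc3, a membrane protein of the Popeye family, followed at 0.14 and 0.14. Ccl5 lay just under the 1 log2 difference that the rule asked for, so its nearest genes were added after the values were seen. They were Calhm2, Prr15 and Dnajc6 (auxilin, which uncoats clathrin vesicles), at distances of 0.09, 0.09 and 0.10 log2. The 3 genes nearest to Ccl12 and the 3 nearest to Ccl5 had none in common. All were picked by their closeness on these same arrays, so nothing is read from that or from the order of arrays they share.

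**Figure D5:**
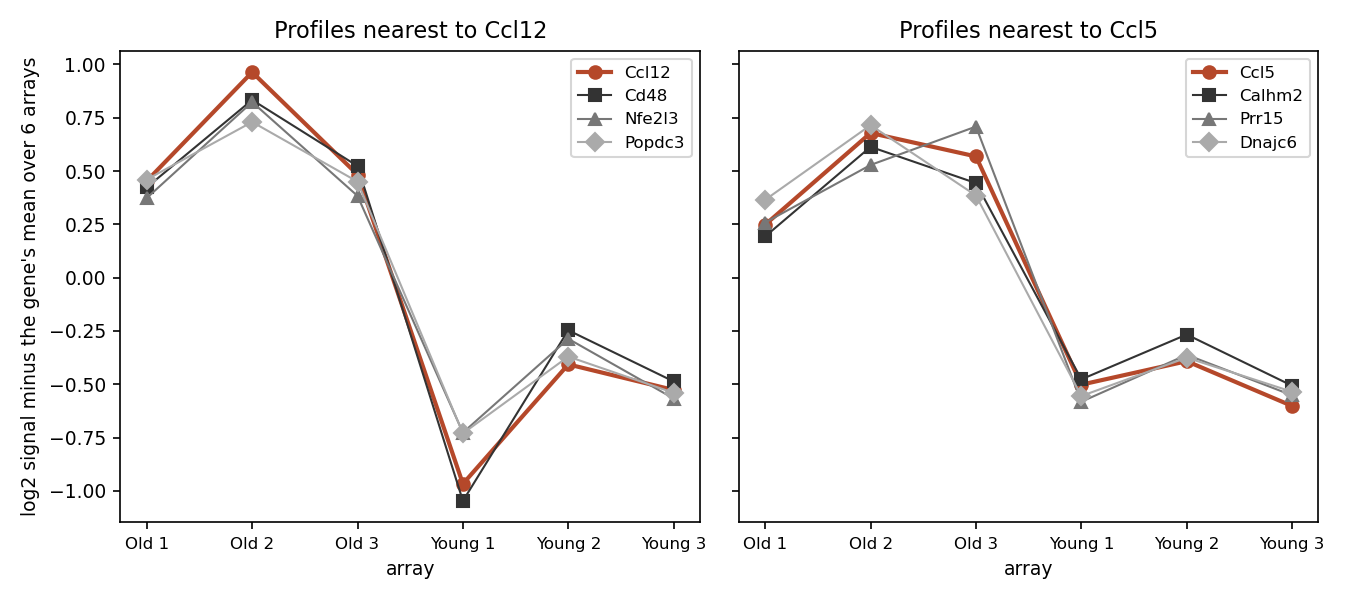
Log2 signal minus each gene's mean over the 6 arrays, with old arrays left of young arrays, for Ccl12 and its 3 nearest genes (left) and Ccl5 and its 3 nearest genes (right). Lines join the arrays of 1 gene only to guide the eye, and in both panels all 3 old arrays lie above all 3 young arrays.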

How the data were processed

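Total RNA from dissected lateral wall was labelled with the Affymetrix 3′ IVT Express kit, 1 sample per array, per the labels' protocols. The authors deposited log2 values of 45101 probe sets on 6 arrays. Affymetrix Expression Console, RMA and MAS5 are named in the submitters' processing notes, and their roles are not stated there. Array medians were 6.26 to 6.30, so a shift shared by most genes would not be seen. The number of arrays limits the precision.

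The 64 control probe sets were left out, and 45037 were fitted with limma 3.58.1 in R 4.3.3 (lmFit, eBayes, age as the only term, Benjamini-Hochberg over all). Names came from GEO's platform annotation, with 34945 probe sets of 1 symbol, 932 of several and 9160 not listed. A gene is given at its brightest probe set. The method was tested on data simulated with independent noise for each probe set. That test does not cover deviations that many probe sets of an array share. Promoters were aligned globally (match 2, mismatch -1, gap opening -5, extension -1) with Biopython 1.88.

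Members and lists were chosen with earlier results of these data known. Named are all members, up to 2 called genes per direction and list (or, in a list without calls, the 2 of smallest p), chromosomal neighbours, and the 3 nearest profiles of members differing by at least 1 log2. Alternatives were other scalings, a filter on dim probe sets, another variance prior, a replicate block, means over probe sets and leaving out each array.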

Additional observations from a re-analysis of the deposited data

How the results depend on the processing

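The Ccl5 difference was 0.91 to 1.12 and the Ccl12 difference 1.10 to 1.38 over 12 alternatives each. The count of called members, a result added after the data were seen, was 2 in all 11 fits on probe sets. All of these fits use the arrays on which the members were picked, so nothing is read from that count. With 1 array left out, the probe sets called ranged from 515 to 3393, the other CC ligands called from 0 to 1, the other receptors called from 0 to 1 and the median member difference from 0.05 to 0.13. Without young replicate 2 the ligand called was Ccl27a and the receptor Ccr1. With dim probe sets left out, 3 members remained in the fit and their median difference was 1.00 in place of 0.09, because the dim members are removed. The other CC ligands called numbered 1 with dim probe sets left out, 1 with an intensity trend and robust variance and 1 when a gene's probe sets were averaged, each time Ccl27a (limma adjusted p = 0.0399, 0.0415 and 0.0461). Same-numbered old and young arrays correlated at 0.14, 0.08 and 0.01 in their deviations from the age means. Old replicates 1 and 2 correlated best with the young array of the same number, and old replicate 3 with young replicate 2. The labels state no pairing. Deviations from a mean of 3 arrays are not independent, so these correlations cannot decide whether same-numbered arrays were paired. With the replicate block, 1932 probe sets were called in place of 2119, and 1 other CC ligand, Ccl11 (limma adjusted p = 0.0405). The Ccl9 difference was -0.09 over the mean of its probe sets. Kcne1 and Otos passed only with an intensity trend and robust variance (limma adjusted p = 0.0473 and 0.0284), and that setting and the replicate block ended the call of Cd3d. Signal over background was not examined, which limits what the 10 dim member probe sets can show.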
